A study of Plutella xylostella with 12 samples.

Results

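Pgm (LOC105386397) is 1 of the 19364 features in the deposited gene tables of the diamondback moth, Plutella xylostella, and it was taken by its locus identifier. The 12 RNA-seq libraries come from a laboratory population kept on cabbage, with 3 libraries in each of the groups female 10 °C, male 10 °C, female 25 °C and male 25 °C. Eggs and young larvae of all groups developed at 25 °C. Early in the instar before the last, the cold groups were transferred to 10 °C while the control groups were held at 25 °C, and both were collected in the middle of the fourth instar. Each library pools the whole bodies of 8 larvae, so fewer cells of a type and less RNA per cell cannot be told apart. Neither the days spent at each temperature nor the way larvae were sexed is given in the labels. The series asks whether the response to cold depends on sex.

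The symbol Pgm is used in animals for enzymes of sugar metabolism. Phosphoglucomutase moves a phosphate group between carbons of glucose and so joins glycogen stores and the making of trehalose, the main blood sugar of insects, to glycolysis. Phosphoglycerate mutase, which has also carried this symbol in insects, works further down in glycolysis and is a much shorter protein. The RefSeq gene table (ilPluXylo3.1) pairs the locus with the symbol alone.

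The gene lies on the minus strand of scaffold NW_011952016, from 1200058 to 1202286 in the coordinates of the deposited tables, for which no source used here names a build. Its model has 5 exons and 1 transcript, with 1218 bp of exon and 1011 bp of intron. An exon length of 1218 bp holds at most 406 codons. As background, phosphoglucomutases of animals are longer than that, so the deposited model goes against the reading as a whole phosphoglucomutase. The gene is therefore called Pgm here, by its symbol, without saying which mutase it encodes.

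Pgm was abundant in every library. Its total gene reads were 6281, 2026 and 4644 in female 10 °C replicates 1, 2 and 3, and 11573, 6531 and 4101 in male 10 °C replicates 1, 2 and 3. They were 3954, 3599 and 5367 in female 25 °C replicates 1, 2 and 4, and 6226, 6307 and 9312 in male 25 °C replicates 1, 2 and 3. Gene reads of the libraries ran from 10183278 to 30106219, and the deepest one, male 10 °C replicate 1, also held the most Pgm reads. Per length, on the TPM scale, Pgm ranked 374th of 18908 features other than tRNAs by its mean of 337 TPM, above 98.0% of them. Its rank in single libraries ran from 325 in male 25 °C replicate 3 to 516 in female 25 °C replicate 2.

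Not every library followed its sex label. For 374 genes strongly higher in males at 25 °C, the median level as a percent of the male 25 °C mean was 0, 8.60 and 33.0 in female 10 °C replicates 1, 2 and 3 and 33.4, 55.3 and 0.134 in male 10 °C replicates 1, 2 and 3. The 25 °C libraries lay at 0 to 2.12 in females and at 98.4 to 103 in males. The genes were chosen from these 25 °C libraries, so their values there do not check the 25 °C labels. Each male 10 °C library lay below all male 25 °C libraries. Male 10 °C replicate 1, at 33.4, lay close to female 10 °C replicate 3, at 33.0. Every Pgm result that uses the 10 °C libraries rests on their sex labels, and values without libraries in doubt are given with the comparisons. Male 10 °C replicate 1 was kept in those, and female 10 °C replicate 2 was kept in those of the permutation tests. They therefore do not remove all doubt.

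CPM (reads of a gene scaled by library size) with TMM scaling, which sets libraries level on the bulk of genes, put the Pgm level at 324, 121 and 258 CPM in female 10 °C replicates 1, 2 and 3. In male 10 °C replicates 1, 2 and 3 it was 318, 436 and 258 CPM. In female 25 °C replicates 1, 2 and 4 it was 433, 196 and 676 CPM. In male 25 °C replicates 1, 2 and 3 it was 605, 671 and 712 CPM. The male groups did not overlap, with every 10 °C library below every 25 °C one. How many other genes split in this way was not counted. The female groups did overlap, because female 25 °C replicate 2 lay below female 10 °C replicates 1 and 3.

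On this scale the order of the groups, from low to high, was female 10 °C (234 ± 103 CPM, SD, n = 3), male 10 °C (337 ± 90.4), female 25 °C (435 ± 240) and male 25 °C (663 ± 53.8). Each pair of neighbours in this order had overlapping ranges. The spread within a group was uneven. The SD was 55.3% of the mean in females at 25 °C and 44.2% in females at 10 °C, against 26.8% and 8.11% in males at 10 °C and 25 °C.

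**Figure D1:**
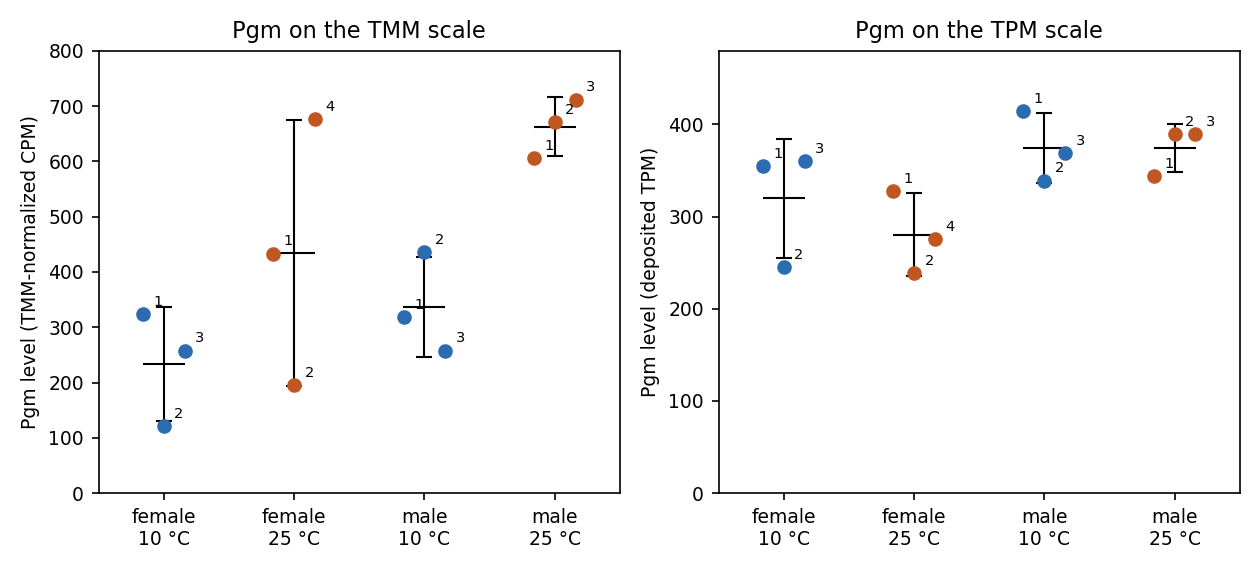
Pgm in each library as TMM-normalized CPM (left) and as deposited TPM (right), with replicate numbers beside the points and bars for the mean ± SD of 3 libraries. On the left the male 10 °C libraries lie below the male 25 °C libraries (258 to 436 against 605 to 712 CPM), while on the right these groups overlap.

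Cold against 25 °C gave Pgm a log2 difference of -0.89 ± 0.47 in females (95% interval -1.93 to 0.14) and of -0.98 ± 0.47 in males (-2.01 to 0.06) on the TMM scale. Neither passed the edgeR quasi-likelihood test with Benjamini-Hochberg adjustment over 15027 genes (adjusted p = 0.328 and 0.174, n = 3 against 3). In the same fit 0.0399% of all genes were called in females and 0.02% in males. A smaller p than that of Pgm was found for 25.4% of tested genes in females and 35.8% in males. With the 10 °C libraries female 3 and male 3 left out, the values were -0.97 in females and -0.81 in males (edgeR adjusted p = 0.495 and 0.451). Leaving out female 10 °C replicate 2 too took the female value to -0.29 (edgeR adjusted p = 1) and the male value to -0.71 (0.392). That fit keeps 1 library of females at 10 °C, which is assumed to vary like the other groups. Averaged over both sexes the difference was -0.93 ± 0.33 (-1.67 to -0.20), that is 1.91-fold lower at 10 °C, with an unadjusted p of 0.0165 and an edgeR adjusted p of 0.0594. This missed the threshold of 0.05, in a comparison where 23% of all genes were called and 9.31% were called lower. The average over the sexes was added with earlier results of these data known. Of pairs of a 10 °C and a 25 °C library of the same sex, 7 of 9 in females and 9 of 9 in males had the lower value at 10 °C. These pairs share libraries, so they are not independent, and they were not counted for other genes.

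The averaged comparison stood close to the threshold, and other settings put Pgm on its other side. Pgm was called lower at 10 °C by the DESeq2 Wald test (-0.90, adjusted p = 0.0279), by limma voom with quality weights (-0.89, adjusted p = 0.00653) and by edgeR on uniquely mapped reads (-1.06, adjusted p = 0.0497). It was also called in edgeR without female 25 °C replicate 2 (-1.11, adjusted p = 0.0188), the 25 °C library with the lowest level. With the 10 °C libraries female 3 and male 3 left out because of their male-high genes, it was -0.89 (edgeR adjusted p = 0.176). With female 10 °C replicate 2 left out as well it was -0.50 (edgeR adjusted p = 0.462).

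The sign of the Pgm difference depended on the scale: it was negative on the TMM scale, smaller but negative without composition scaling (-0.25 ± 0.21 in edgeR, adjusted p = 0.349), and positive on the TPM scale (0.09). The deposited TPM values were 355, 245 and 360 in female 10 °C replicates 1, 2 and 3, and 415, 339 and 369 in male 10 °C replicates 1, 2 and 3. They were 327, 239 and 276 in female 25 °C replicates 1, 2 and 4, and 344, 389.6 and 389.1 in male 25 °C replicates 1, 2 and 3. The 10 °C and 25 °C libraries overlapped in both sexes, and the male means were equal to 4 digits (374.2 TPM in both). On log2(TPM + 1) the difference between the temperatures had an exact two-sided permutation p of 0.46, with labels permuted within sex (n = 6 against 6). With the 10 °C libraries female 3 and male 3 left out it was 0.05 (exact p = 0.71).

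All genes moved with the scale as well. The 10 °C libraries had TMM factors of 0.944 to 1.65, and the 25 °C libraries of 0.588 to 1.17. The median over 15027 genes of the averaged log2 difference between 10 °C and 25 °C was 0.18 on the TMM scale, 0.59 with library totals only, 0.44 in RPKM and 0.67 in TPM. Relative to that median, Pgm stood at -1.10, -0.84, -0.63 and -0.58 in the same order. On each scale Pgm thus lay below the median gene, with 15.7%, 15.9%, 16.6% and 20.9% of genes lower still. These percentiles describe the libraries, and no test was made of them. The RPKM difference itself was -0.19.

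**Figure D2:**
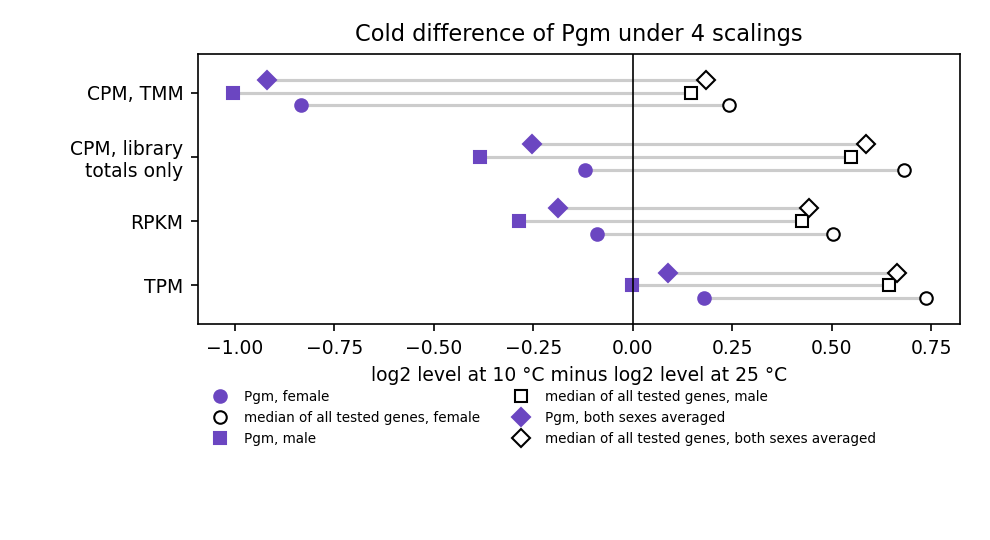
Difference in log2 level between 10 °C and 25 °C for Pgm (filled) and for the median of all 15027 tested genes (open) under 4 scalings, for females, males and their average. Pgm lies left of the median gene on each scale, but its averaged difference runs from -0.92 with TMM to 0.09 with TPM.

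The cold response of Pgm did not differ between the sexes beyond its error (difference of the log2 changes 0.08 ± 0.66, 95% interval -1.37 to 1.53, edgeR adjusted p = 0.996). This interval allows a large difference in either direction. In edgeR 0% of all genes were called for this difference, and 1351 of 15027 had an unadjusted p under 0.05. DESeq2 called 17 genes and voom called 8. Its sign was not fixed either: it was -0.16 with the 10 °C libraries female 3 and male 3 left out and 0.41 with female 2 left out too, and it ran from -0.27 to 0.50 over the fits without 1 library.

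Females had the lower mean of Pgm at both temperatures, without passing the test. At 25 °C the log2 difference of females against males was -0.61 ± 0.47 (95% interval -1.64 to 0.42, edgeR adjusted p = 0.48), and at 10 °C it was -0.53 ± 0.47 (-1.55 to 0.50, edgeR adjusted p = 0.9999). The 10 °C value rests on the sex labels in doubt: it was -0.76 with the 10 °C libraries female 3 and male 3 left out (edgeR adjusted p = 0.879) and -0.19 with female 2 left out too (edgeR adjusted p = 1). The percent of all genes called was 0% in both edgeR comparisons. Of 15027 genes, 3369 had an unadjusted p below 0.05 at 25 °C and 120 at 10 °C. DESeq2 called 2049 genes at 25 °C and 0 at 10 °C, and voom 4667 and 0. The value at 25 °C moved with single female libraries, from -0.26 without replicate 2 to -1.05 without replicate 4.

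On the TPM scale the female libraries ran from 239 to 360 and the male libraries from 339 to 415. The difference on log2(TPM + 1) was -0.33, with an exact two-sided permutation p of 0.025 when labels were permuted within temperature (n = 6 against 6), and of 0.0667 when adjusted over the 8 permutation tests made on Pgm. With the 10 °C libraries female 3 and male 3 left out it was -0.38 (exact p = 0.05). With all libraries it was -0.42 at 25 °C, where all 3 male libraries lay above all 3 female ones, and -0.24 at 10 °C, where the groups overlapped. Within a temperature 3 against 3 libraries cannot give an exact p below 0.1. At 25 °C the exact p was 0.1, and at 10 °C it was 0.4.

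**Figure D3:**
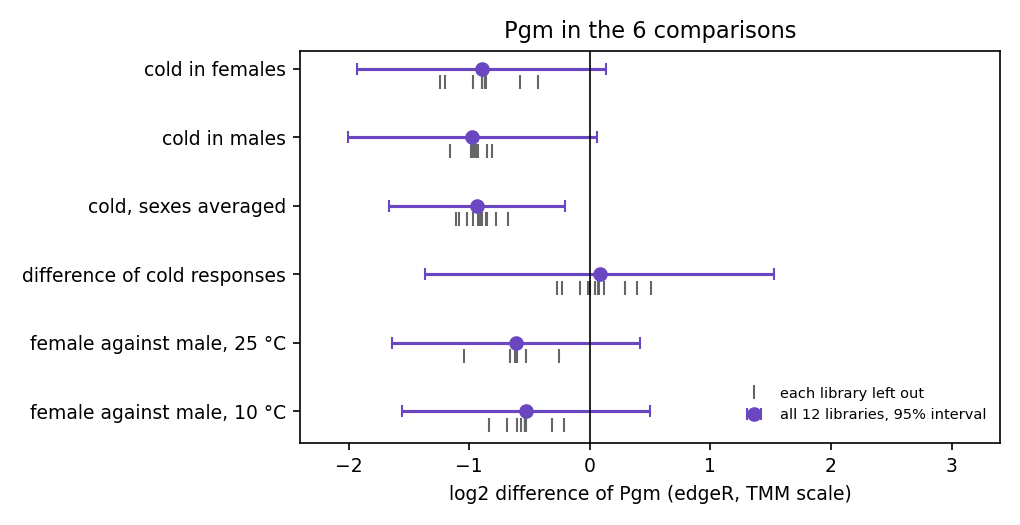
Log2 difference of Pgm in the 6 comparisons, from the edgeR fit of all 12 libraries with its 95% interval (points and bars) and from fits that each left out 1 library (ticks). The interval stays below 0 for cold averaged over the sexes (-1.67 to -0.20) and spans 0 for the other 5.

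The make-up of the Pgm reads within a library is a measure that does not depend on scaling between libraries. Exon-exon reads, which cross a splice junction, made up 56.5%, 68.9% and 61.9% of the exon reads in female 10 °C replicates 1, 2 and 3 and 72.6%, 56.7% and 64.4% in male 10 °C replicates 1, 2 and 3. They made up 51.7%, 61.6% and 39.1% in female 25 °C replicates 1, 2 and 4 and 48.8%, 44.1% and 44.2% in male 25 °C replicates 1, 2 and 3. The male groups did not overlap, which gave an exact permutation p of 0.1, the lowest possible with 3 against 3 libraries. In the female groups 25 °C replicate 2 lay among the 10 °C libraries.

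The mean exon-exon share was 63.5% ± 6.46 at 10 °C and 48.3% ± 7.84 at 25 °C (SD, n = 6). The difference of 15.3 percentage points had an exact two-sided permutation p of 0.01 within sex, and of 0.0667 when adjusted over the 8 tests. It was 11.7 points in females and 18.8 points in males. Uniquely mapped reads gave 15.1 points, and leaving out the 10 °C libraries female 3 and male 3 gave 15.4 points (exact p = 0.03). Over all genes of a library this share was 46.3% to 56.5% at 10 °C and 45.8% to 48.8% at 25 °C. The measure was picked after its values were seen. Over 3553 genes with several exons and at least 100 exon reads in each library, the median difference in this share was 6.81 points, and 23.8% of these genes had a larger one than Pgm.

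Intron reads were few. They were 4.30%, 2.86% and 3.83% of the Pgm reads in female 10 °C replicates 1, 2 and 3 and 2.79%, 3.25% and 3.61% in male 10 °C replicates 1, 2 and 3. In female 25 °C replicates 1, 2 and 4 they were 4.55%, 3.03% and 9.13%, and in male 25 °C replicates 1, 2 and 3 they were 4.71%, 6.18% and 8.78%. The male groups were again apart (exact permutation p = 0.1), and female 25 °C replicate 2 again lay with the 10 °C libraries. Wilson 95% intervals of these shares reached at most 0.771 points to either side, and those of the exon-exon shares at most 2.04 points. They cover counting error only, since reads copied by PCR are not independent molecules.

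The mean intron share was 3.44% ± 0.585 at 10 °C and 6.06% ± 2.46 at 25 °C (SD, n = 6), with an exact two-sided permutation p of 0.025 within sex and of 0.0667 when adjusted over the 8 tests. With the 10 °C libraries female 3 and male 3 left out the difference was -2.77 points (exact p = 0.08). The intron share of whole libraries ran the other way, between 4.23% and 8.25% at 10 °C against 3.81% and 4.89% at 25 °C, with overlapping ranges. Over the same 3553 genes the median difference was 0.10 points, against -2.62 points for Pgm, and 13.4% of genes lay lower. Per base, introns of Pgm carried 3.46% to 12.1% of the read density of its exons. Females and males did not differ beyond their spread in either share (exact two-sided permutation p = 0.8 for intron reads and 0.755 for exon-exon reads, and 0.867 and 0.783 without those libraries).

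**Figure D4:**
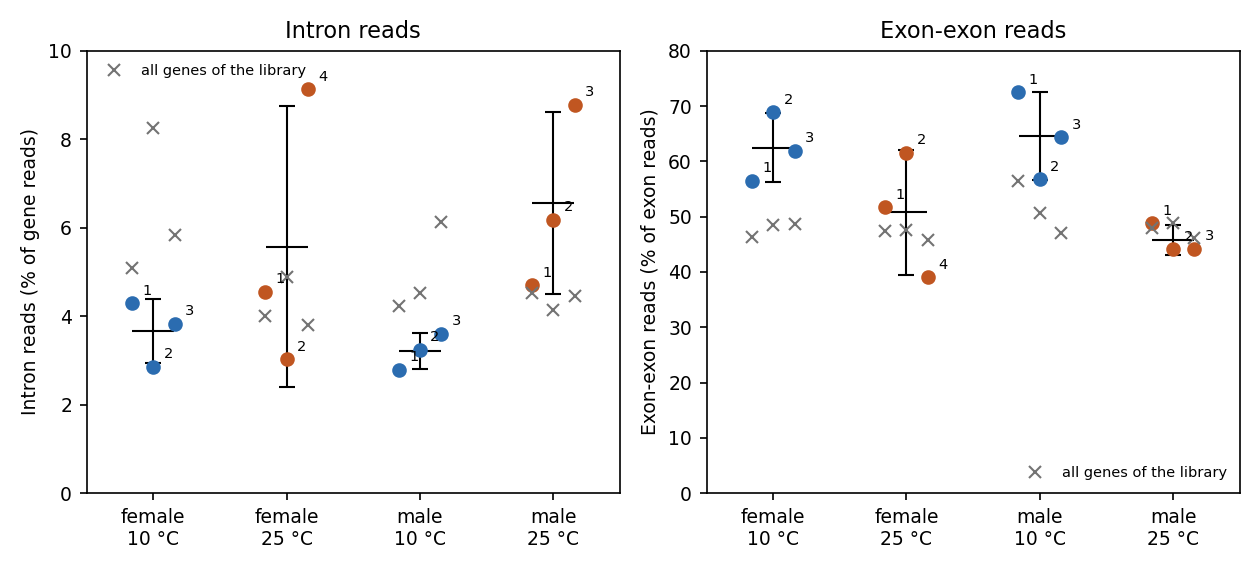
Intron reads as a percent of the gene reads of Pgm (left) and exon-exon reads as a percent of its exon reads (right) in each library, with replicate numbers and the mean ± SD of 3 libraries. Grey crosses give the same share over all genes of the library: the intron share of Pgm is below that of its library in all 6 libraries at 10 °C, and in the male 25 °C libraries it is above.

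Between 78.0% and 90.2% of Pgm reads mapped uniquely, against 93.1% to 95.5% of the reads of whole libraries. Over the 12 libraries 10854 exon reads of Pgm were not unique, and 9788 of these (90.2%) were exon-exon reads. Over all features 36.9% of the exon reads that were not unique crossed a junction. Among 483 features with several exons and at least 1000 such reads the median was 12.6%, and 78 of them had a share above that of Pgm. Which other locus these reads match is not given in the tables, so 9.84% to 22.0% of the Pgm reads of a library may belong elsewhere. This share was not even between the groups. Its mean was 19.2% ± 2.54 at 10 °C and 14.3% ± 4.47 at 25 °C in females (SD, n = 3). In males it was 18.8% ± 3.48 and 11.1% ± 0.652. Uniquely mapped reads alone gave -1.06 for cold averaged over the sexes, against -0.93 with all reads.

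The genes on both sides lie close. LOC105386368 ends 2 bp from Pgm on the opposite strand and held 33 to 163 reads per library, and LOC105386407 starts 166 bp away on the other side, also on the opposite strand, and held 14 to 580. No source used here says whether counting used strand, so reads at their edges cannot be told apart from those of Pgm, which held 2026 or more. Averaged over the sexes LOC105386407 rose at 10 °C (log2 2.01 ± 0.46, edgeR adjusted p = 0.0259), with the sign opposite to that of Pgm on the TMM scale. LOC105386368 had 0.15 ± 0.30 (edgeR adjusted p = 0.719).

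Of the other genes of sugar metabolism that were looked for by symbol (glycogen, trehalose, glycolysis, the pentose phosphate path and chitin precursors), 1 matched. This was Gapdh (LOC105388172), which encodes glyceraldehyde-3-phosphate dehydrogenase of glycolysis and has an exon length of 1321 bp, close to that of Pgm. Most genes of these tables carry no symbol, so other enzymes of the path are not analysed here. Averaged over the sexes Gapdh had a log2 difference of -0.31 ± 0.25 on the TMM scale (edgeR adjusted p = 0.345). Neither Gapdh nor Pgm was called in this comparison, in which 23% of all genes were.

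Per length, Pgm stood at 19.6%, 12.1% and 21.2% of the Gapdh TPM in female 10 °C replicates 1, 2 and 3 and at 16.7%, 32.2% and 19.3% in male 10 °C replicates 1, 2 and 3. At 25 °C it stood at 25.8%, 16.1% and 29.8% in female replicates 1, 2 and 4 and at 35.2%, 35.0% and 36.0% in male replicates 1, 2 and 3. The male 25 °C libraries were nearly alike and above all others. This ratio needs no scaling between libraries and was not planned in advance. Its log2 value was 0.56 lower at 10 °C (-2.37 against -1.81, exact two-sided permutation p = 0.05 within sex, 0.096 adjusted over the 8 tests). In females it was 0.48 lower than in males (-2.33 against -1.85, exact p = 0.06 within temperature, 0.096 adjusted). With the 10 °C libraries female 3 and male 3 left out these differences were -0.596 (exact p = 0.08) and -0.601 (exact p = 0.0833). Gapdh itself was at 1842 ± 165 and 1226 ± 281 TPM in females at 10 °C and 25 °C and at 1814 ± 719 and 1057 ± 70.5 TPM in males. Pgm was at 320 ± 64.6 and 281 ± 44.6 TPM in females and at 374 ± 38.2 and 374 ± 26.3 TPM in males. On the TPM scale the lower ratio at 10 °C went with a higher mean of Gapdh, while the mean of Pgm was not lower in either sex. On the TMM scale the averaged log2 difference was negative for both, at -0.31 ± 0.25 for Gapdh and -0.93 ± 0.33 for Pgm. Which of the genes moved thus depends on the scale.

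The genes whose log2 TMM CPM followed Pgm most closely over the 12 libraries were LOC105395139 (Pearson r = 0.989), LOC105387922 (r = 0.988) and LOC105397409 (r = 0.988). With the 4 group means taken out, r was 0.99, 0.974 and 0.974, so the likeness lay in differences between replicates too. Among genes with a symbol the closest were SDF2-l1 (LOC105392818, r = 0.961) and ubiquitin (LOC105397135, r = 0.96), and Gapdh had r = 0.855. Of 13390 genes compared, 1226 had r above 0.9, so a close match to Pgm was common. All of these values share the libraries and their TMM factors and are given as a description. The 1226 genes had a median exon length of 1000 bp, against 1703 bp for all genes compared.

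**Figure D5:**
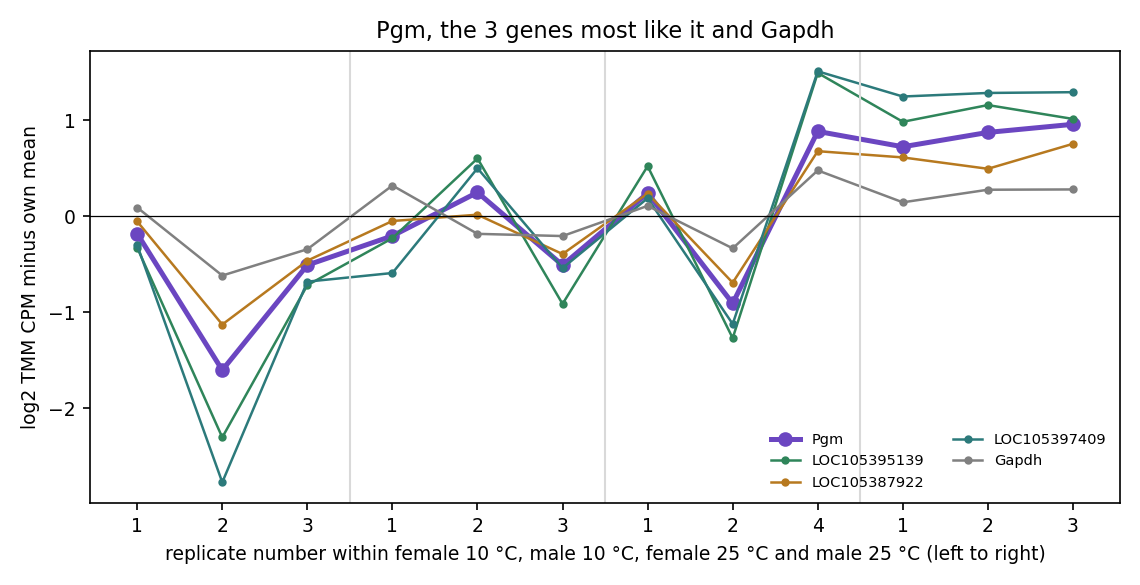
Log2 TMM CPM of Pgm, of the 3 genes most like it and of Gapdh in each library, each minus its own mean over the 12 libraries. Lines only join the points of a gene, since replicates have no order. Pgm and each of the 3 genes were lowest in female 10 °C replicate 2 and next lowest in female 25 °C replicate 2.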

How the data were processed

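Per the labels' protocols, fragmented poly(A) RNA was primed at random (NEBNext Ultra II kit), and both ends were read on a NovaSeq. The sources used here name no aligner, counting tool, genome build or annotation. Per the file headers, the authors deposited whole-number read counts per gene (total, unique, exon, exon-exon and intron reads) with TPM and RPKM values. Exon and intron counts added up to gene counts in 100% of entries, and the deposited TPM equalled exon reads per exon base, scaled to a fixed sum. Symbols came from the RefSeq gene table of another assembly, ilPluXylo3.1, which holds 10698 of 18895 locus identifiers.

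Total gene counts of all 12 libraries were fitted with edgeR 4.0.16 in R 4.3.3 (TMM, minimum count 10, minimum total 15, robust quasi-likelihood, 4 group means), and p-values were adjusted over 15027 genes by Benjamini-Hochberg. The SE is the absolute log2 change over the square root of F, and intervals are 95%. The fit was tested on simulated counts with the same spread set for every gene, as a check of the code. That test does not measure power or error rate in these libraries. TPM (log2, pseudocount 1) and read shares were compared by exact permutation tests. DESeq2 1.42.0, limma 3.58.1 voom and other settings were alternatives. No library pair within a group matched within counting error. Since each library is its own pool of larvae per the labels, p-values reflect the spread between pools. Male-high genes came from the 25 °C libraries alone (edgeR adjusted p below 0.05, 16-fold, 5 CPM). Genes named are Pgm, its nearest neighbours, matched members of the sugar list, and the 3 genes and 2 symbol-bearing genes with the highest r among genes with a mean of at least 1 CPM. The gene, lists and settings were chosen with earlier results of these data known.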

Additional observations from a re-analysis of the deposited data

How the results depend on the processing

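With 3 libraries a group and spreads of up to 55.3% of the mean, the design resolves only large changes of Pgm, and larval pools, sex labels and read sharing limit it further. The call of cold averaged over the sexes was gained with DESeq2 (-0.90), voom (-0.89) and unique reads (-1.06), and that in males with voom (-1.12, adjusted p = 0.0201). Without composition scaling the averaged value was -0.25. The difference between the sexes' responses reversed with the 10 °C libraries female 3 and male 3 left out (-0.16), and the cold difference of TPM reversed in RPKM (-0.19). The causes were not tested. Without those libraries, TPM of females against males was -0.38 (exact p = 0.05) and the intron share at 10 °C against 25 °C was -2.77 points (exact p = 0.08). The filters, DESeq2 size factors, exon reads and removal of the exon-length trend changed no call and no direction in the 6 edgeR comparisons. Removal of that trend did shrink values, to -0.77 for cold averaged over the sexes (edgeR adjusted p = 0.0715). For females against males at 25 °C it gave -0.46.

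Leaving out each library gave -1.24 to -0.43 for cold in females, -1.16 to -0.81 in males, -1.11 to -0.68 for their average (adjusted p from 0.0188 to 0.163) and -0.27 to 0.50 for the difference of the responses. It gave -1.05 to -0.26 for females against males at 25 °C and -0.84 to -0.21 at 10 °C. For TPM it gave 0.03 to 0.18 between temperatures and -0.39 to -0.24 between sexes (exact p from 0.02 to 0.07). Intron shares ran from -3.26 to -1.73 points between temperatures (exact p from 0.005 to 0.09) and from -1.16 to 0.37 between sexes, and exon-exon shares from 12.3 to 18.0 (exact p from 0.005 to 0.025) and from -1.23 to 4.40. The log2 ratio to Gapdh ran from -0.70 to -0.44 and from -0.58 to -0.34.

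Same-numbered libraries of different groups did not deviate together more often than others: 3 of 15 pairs correlated above 0.1, against 14 of 39 pairs with different numbers. Their r ran from -0.74 to 0.57, against -0.49 to 0.58. Deviations were taken from group means of 3 libraries, so this count cannot exclude a pairing. A replicate block gave -0.68 for cold averaged over the sexes (edgeR adjusted p = 0.214), -0.40 in females, -0.96 in males, 0.56 for the difference of the responses, and -1.18 and -0.62 for females against males at 25 °C and 10 °C, with 0 calls of Pgm. Number 4 occurs only in female 25 °C replicate 4, so the block sets that library aside. Leaving that library out without a block gave -0.68 averaged over the sexes and -0.43 in females. Genes called over the table moved with the tool: 6 in females with edgeR, 700 with DESeq2 and 1608 with voom, 3, 3460 and 7031 in males, and 3453, 5935 and 7629 averaged. No composition scaling gave 5654 in the last (5081 higher, 573 lower), against 2054 higher and 1399 lower with TMM, and the block gave 20.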
